A study of Homo sapiens with 33 samples.

Results

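The comparison described here set ALK inhibitor A2 against mock compound A1 in TS cells, a human cell line, over all probe sets of the array. Its members were chosen by sample title: the 3 arrays of A2 and the 3 arrays of A1, which are 6 of the 33 arrays of the study. TS is a subclone of Sup-M2, a line of ALK-positive anaplastic large cell lymphoma (ALCL), so it stands for 1 clone of 1 tumour. The cells had been kept for 6 h with 300 nM of A2 or of A1, in medium with fetal calf serum, and total RNA was hybridised to Affymetrix HG-U133A arrays. The same experiment held 3 arrays of U, the cells with no compound, and 3 arrays of a further ALK inhibitor, A3, at the same dose and time. The design text calls A1 the mock compound and U the control diluent, whereas in the sample descriptions A1 is an ALK inhibitor and U is untreated; A1 was used here as the control. In the other 21 arrays of the study, TS or Su-DHL1 cells, another ALK-positive ALCL line, carried a hairpin RNA against ALK (A5) or its mutated form (A5M) that doxycycline switches on for 72 or 84 h. Nothing in the labels makes the replicates separate cultures, so the tests reflect only the scatter of these samples, and part of it may be technical.

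ALK-positive ALCL is a T-cell lymphoma driven by a fusion of the receptor tyrosine kinase ALK, most often to NPM1, that is active without a ligand. The fusion kinase is known to feed the RAS-ERK cascade, the JAK-STAT pathway with STAT3 at its centre, and the PI3K-AKT pathway, which keeps FOXO transcription factors out of the nucleus. ERK induces immediate early genes and its own inhibitors, STAT3 induces SOCS feedback genes and cytokines, and AKT represses FOXO targets. The gene lists below follow these branches and the processes they control.

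Values are MAS5 signals, an intensity per probe set scaled to a common trimmed mean on each array, so that a change of the total RNA content of a cell cannot be seen. A fold change is the difference of mean log2(signal + 11) between A2 and A1 with limma's standard error, 3 arrays per group, and it understates the change of genes with low signals. A gene was called, and is said to have risen or fallen, at a limma p below 0.05 after Benjamini-Hochberg adjustment over all genes tested. With 3 arrays per group, the array number limits precision throughout. Replicates correlated at r = 0.970 to 0.983 within A1 and 0.979 to 0.980 within A2 across probe sets, and A1 arrays correlated with A2 arrays at 0.912 to 0.932. The ratio of the 3' to the 5' control probe set of ACTB, which depends on RNA quality and labelling, was 1.33 ± 0.07 (SD, n = 3) with A1 and 1.05 ± 0.03 (SD, n = 3) with A2, without overlap (exact two-sided permutation p = 0.1, the smallest that 3 against 3 arrays allow). For U it was 1.18 ± 0.12 (SD, n = 3). The same ratio of GAPDH was 0.98 ± 0.10 with A1 and 0.89 ± 0.03 with A2 (exact permutation p = 0.3). With the ACTB ratio as a covariate, 1354 genes were called in place of 2871, 668 higher and 686 lower, and counts from that fit are given beside the gene groups.

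After 6 h with A2, 2871 of 8587 genes tested differed from A1 (33.4%). Of these 1642 were higher (19.1%) and 1229 lower (14.3%). The excess of rises depended on the scaling: 57.2% of calls were higher at the deposited scaling, 54.3% after quantile normalization and 49.9% (1393 higher, 1397 lower) with arrays shifted to a common median. The largest falls were deeper than the largest rises: log2 fold changes ran from -6.40 for MYC to 3.40 for TXNIP. Among called genes 372 were at least 2-fold lower (4.33%) and 262 at least 2-fold higher (3.05%). Signals of the 2 groups did not overlap for 3827 genes (44.6%). The median fold change of all genes was 0.02 and the median standard error 0.16, both on the log2 scale. ALK itself, the kinase that A2 is meant to inhibit, had signals of 2959, 4027 and 3942 with A1 and 2884, 3068 and 2699.5 with A2. The lowest A1 array lay between the A2 arrays, and ALK was not called (-0.32 ± 0.13, limma adjusted p = 0.0702). It was called at -0.47 without A1 replicate 1, at -0.38 with arrays shifted to a common median, and at -0.29 after quantile normalization. NPM1, the usual fusion partner of ALK, was not called either (-0.15 ± 0.13, limma adjusted p = 0.425).

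**Figure D1:**
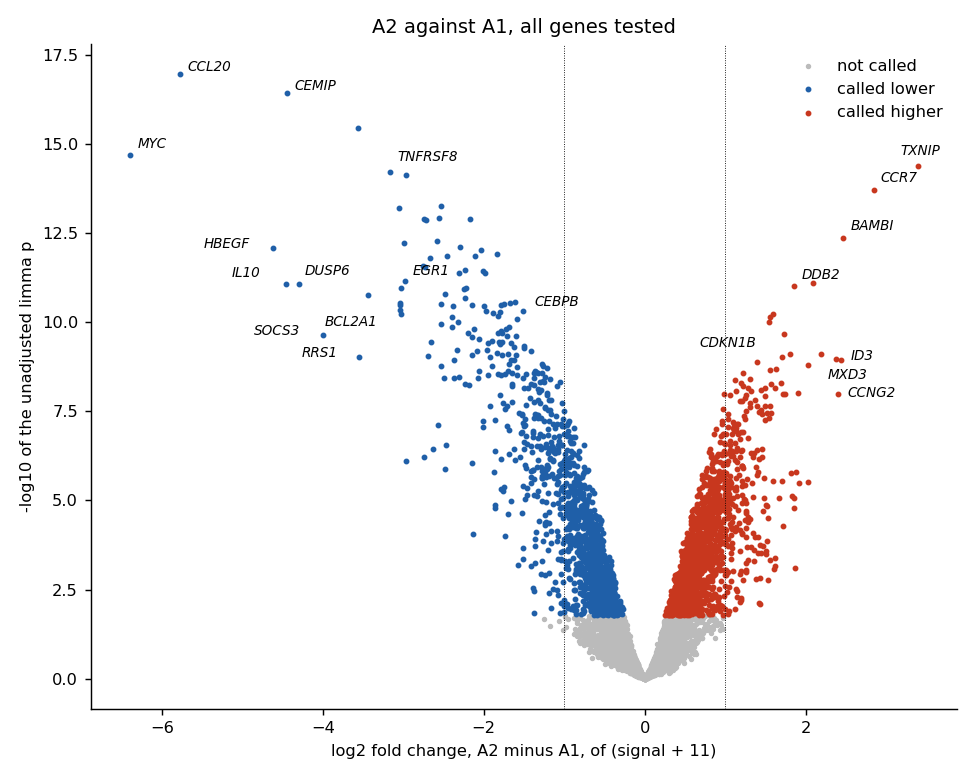
Each point is 1 of the 8587 genes tested, with the log2 fold change of A2 against A1 on the x axis and -log10 of the unadjusted limma p on the y axis; dotted lines mark 2-fold changes, and called genes are blue when lower and red when higher. The left arm reaches -6.40 and the right arm 3.40, with 1642 genes called higher and 1229 lower at the deposited scaling.

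MYC, a transcription factor that drives growth and ribosome production, had the largest fall of all genes tested. Its signals were 2723, 2408 and 2641 with A1 and 7.6, 38.8 and 20.7 with A2, an 84.2-fold fall (-6.40 ± 0.23, limma adjusted p = 4.41e-12). All A2 arrays were far below all A1 arrays, and the U arrays (2715, 2701 and 2769.6) lay with A1. Signals as low as these depend on the constant added before the logarithm: the fall was -7.05 on the log2 scale with 1 added and -5.63 with 32 added. The second largest fall was in CCL20, a chemokine that attracts cells through CCR6, with signals of 944, 911 and 849 with A1 and 6.7, 2.5 and 8.4 with A2 (-5.77 ± 0.15). HBEGF, a membrane-bound growth factor of the EGF family, went from 668, 717 and 664 to 13.4, 27.8 and 12.5 (-4.62 ± 0.24). Another probe set of HBEGF fell less (-2.71). The deposited table gives no detection calls, so signals near the constant of 11 cannot be told from background here.

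The 15 genes with the largest falls also held IL10, CEMIP, CD300A and GAS1. IL10, an immune-suppressing cytokine and STAT3 target, had signals of 393, 372 and 426 with A1 and 21.6, 3.3 and 2.6 with A2 (-4.46 ± 0.27). CEMIP, a protein that takes part in hyaluronan breakdown, fell from 1062, 1039 and 999 to 35.9, 33.2 and 41.8 (-4.45 ± 0.13). CD300A, an inhibitory receptor of leukocytes, fell 11.8-fold (-3.56 ± 0.12), and GAS1, a membrane protein known for growth arrest and Hedgehog signalling, fell 8.33-fold (-3.06 ± 0.14). The other members of the 15, DUSP6, DUSP2, SOCS3, SOCS1, RRS1, TNFRSF8, ICOS and BCL2A1, belong to the gene lists below. These 15 genes, like the 15 highest below, were picked among called genes without overlap. That the A2 arrays lay below all A1 arrays in each of them is therefore set by the rule. The A3 arrays also lay below these same A1 arrays in each of the 15.

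**Figure D2:**
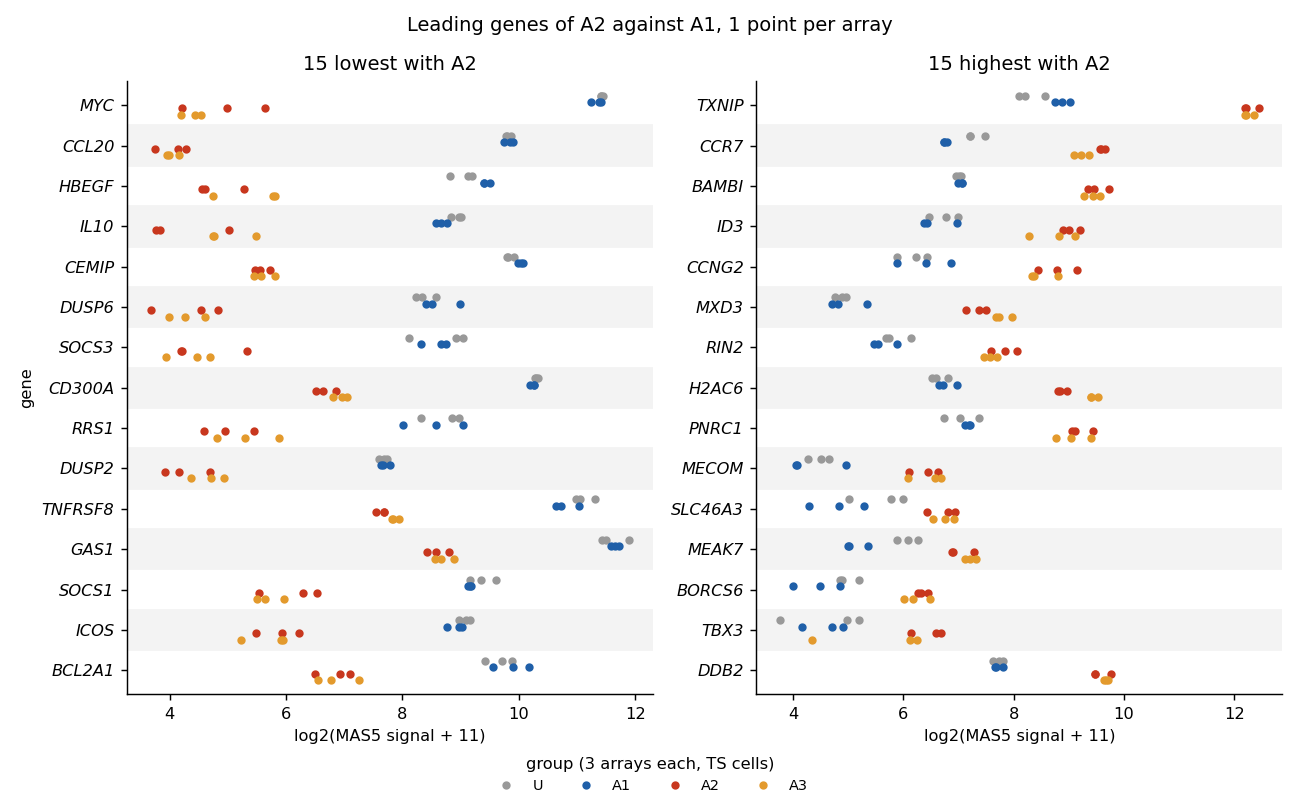
Every point is the log2(signal + 11) of 1 array, for the 15 genes with the lowest and the 15 with the highest fold change of A2 against A1 among called genes without overlap, with the arrays of U, A1, A2 and A3 on separate lines of each gene. In the left panel U and A1 lie right of A2 and A3, from MYC at -6.40 to BCL2A1 at -3.04; in the right panel the order is turned, and 1 A3 array of TBX3 lies among the A1 arrays.

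Targets of ERK fell. Of 17 ERK feedback and target genes tested, from a list of 26, 15 fell and 1 rose, where 14.3% and 19.1% of all genes did, and the median was -2.25 against 0.02 over all genes. Without the filter on low values 16 of 23 fell and the median was -1.78; with the ACTB covariate 14 of the 17 fell and none rose. Among the phosphatases that switch ERK off, DUSP6 went from 355, 499 and 329 with A1 to 17.4, 1.8 and 12.2 with A2 (-4.29 ± 0.26, limma adjusted p = 2.13e-09), with no overlap. DUSP2, a nuclear phosphatase of the same family, fell 10.8-fold (-3.44 ± 0.22), and DUSP7 (-1.42) and DUSP5 (-0.87) fell less. DUSP1, which acts on stress kinases as well, was the member that rose (0.82 ± 0.16). The inhibitors SPRED2 (-2.25) and SPRY4 (-1.78) fell, while SPRY1 was not called (0.02). All 3 PEA3 transcription factors, ETV1 (-2.53), ETV5 (-1.92) and ETV4 (-0.68), fell too.

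The transcription factors EGR1 and FOSL1 fell too, and EGR1 is a member of the ERK list counted above. EGR1, a zinc finger factor induced within minutes of growth factor signals, had signals of 307, 322 and 264 with A1 and 27.5, 26.4 and 30.3 with A2 (-2.98 ± 0.18, limma adjusted p = 1.88e-09). Another probe set of EGR1 fell less (-1.09). FOSL1, an AP-1 subunit, went from 185, 277 and 202 to 20.5, 36.9 and 18.3 (-2.69 ± 0.22). No array of either gene overlapped between the groups. PHLDA1, a pleckstrin-homology-like protein, fell 5.64-fold (-2.50 ± 0.22) and IER3, an immediate early gene of survival, 5.26-fold (-2.39 ± 0.17).

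The wider list of immediate early and AP-1 genes was split. Of 23 tested, 12 fell (52.2%, against 14.3% of all genes) and 4 rose (17.4%, against 19.1%). The median was -0.42, and 10 fell and 3 rose with the ACTB covariate. BATF3, an AP-1 factor that ALCL cells are known to express highly, went from 2387, 2472 and 2031 to 388, 328 and 302 (-2.72 ± 0.13), without overlap. IER2 (-2.37), JUNB (-1.68), MAFF (-1.04), FOSL2 (-0.90) and BATF (-0.74) fell as well. JUN itself rose (1.00 ± 0.21), as did JUND (0.76), the growth-inhibiting factor KLF6 (1.49) and BTG1 (0.85), an inhibitor of proliferation. The orphan receptors NR4A1 (-0.30), NR4A2 (0.03) and NR4A3 (0.33) were not called.

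Target and feedback genes of JAK-STAT signalling fell in 15 of 24 cases tested (62.5%, against 14.3% of all genes), from a list of 29. Of the list 1 rose (4.17%, against 19.1%), and the median was -0.70. With the ACTB covariate 13 fell and 0 rose, and 3 rose without A1 replicate 1. SOCS3, the feedback inhibitor of STAT3-activating receptors, had signals of 393, 307 and 419.9 with A1 and 7.2, 29 and 7.5 with A2 (-4.00 ± 0.30, limma adjusted p = 2.62e-08). Another probe set of SOCS3 fell less (-1.73). SOCS1, an inhibitor of JAK kinases, went from 568, 564 and 546 to 35.1, 67.2 and 81.3 (-3.04 ± 0.21); another probe set of SOCS1 was not called (0.23). Both genes were lower on every A2 array than on any A1 array, and CISH, a STAT5-induced member of the family, fell too (-2.55), while SOCS2 was not called (0.26). Among cytokines and receptors OSM (-2.57), a cytokine of the interleukin-6 family, IL2RA (-1.78), which encodes CD25, and IL6ST (-1.45), the shared signal chain gp130, fell. STAT3 itself (-0.66) and the kinase gene PIM1 (-0.90) fell. The survival genes of the list differed: MCL1 fell (-0.55 ± 0.18), BCL2L1 was not called (0.01), and BIRC5, which is also a mitotic gene, rose (0.53).

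BCL2A1, an inhibitor of apoptosis, and CEBPB, a leucine zipper transcription factor, are known as genes that the study picked from such samples, so their direction is not independent evidence. BCL2A1 had signals of 1146, 744 and 939 with A1 and 109.9, 127 and 79.4 with A2, an 8.2-fold fall (-3.04 ± 0.20, limma adjusted p = 5.66e-09). CEBPB went from 4778, 4752 and 5108 to 1735, 1849.8 and 1545, 2.85-fold lower (-1.51 ± 0.10, limma adjusted p = 7.88e-09). Neither gene overlapped between A1 and A2. Their U arrays, 672, 934 and 827 for BCL2A1 and 4772, 4468 and 4542 for CEBPB, lay with those of A1.

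The 250 bases before the transcription start were searched for motifs of the factors at the ends of these branches. The windows are RefSeq's, on assembly GRCh38.p14, and 7087 of the 8587 genes tested had at least 1. Both strands were searched for the STAT motif TTCNNNGAA, the CRE TGACGTCA bound by CREB factors, the CArG box bound by SRF, and the ETS motif CCGGAAGT. Candidates for printing were the called genes that fell and that the naming rule, given under data processing, had picked. The 4 of them with the largest falls whose window held a match are shown, with the matches in capitals. List members named outside that rule were not candidates.
BCL2A1: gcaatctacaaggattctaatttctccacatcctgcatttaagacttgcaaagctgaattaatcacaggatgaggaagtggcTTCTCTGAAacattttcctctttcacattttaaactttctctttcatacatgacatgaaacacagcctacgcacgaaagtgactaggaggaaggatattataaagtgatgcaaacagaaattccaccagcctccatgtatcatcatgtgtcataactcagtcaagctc
EGR1: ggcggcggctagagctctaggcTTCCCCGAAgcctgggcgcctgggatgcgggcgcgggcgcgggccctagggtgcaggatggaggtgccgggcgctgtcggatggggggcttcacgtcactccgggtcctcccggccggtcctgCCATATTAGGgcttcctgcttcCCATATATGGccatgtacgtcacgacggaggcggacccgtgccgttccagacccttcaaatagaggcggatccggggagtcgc
CCR1: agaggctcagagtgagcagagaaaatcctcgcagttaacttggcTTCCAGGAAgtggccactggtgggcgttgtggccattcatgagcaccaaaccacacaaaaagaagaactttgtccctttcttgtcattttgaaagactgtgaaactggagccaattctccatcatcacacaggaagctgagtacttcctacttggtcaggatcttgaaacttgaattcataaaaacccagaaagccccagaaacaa
ICAM1: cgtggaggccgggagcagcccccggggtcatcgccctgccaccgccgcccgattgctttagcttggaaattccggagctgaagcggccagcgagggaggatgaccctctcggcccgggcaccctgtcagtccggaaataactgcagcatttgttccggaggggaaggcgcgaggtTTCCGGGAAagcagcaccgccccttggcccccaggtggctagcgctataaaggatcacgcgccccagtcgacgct
The windows lie at chr15:79971197-79971446 (minus strand) for BCL2A1, chr5:138465229-138465478 (plus) for EGR1, chr3:46208314-46208563 (minus) for CCR1 and chr19:10270870-10271119 (plus) for ICAM1. A STAT match began 168 bases before the start of BCL2A1, 228 before EGR1, 206 before CCR1 and 75 before ICAM1, and EGR1 also held CArG boxes 105 and 83 bases before its start. The STAT motif was in 6.9% of windows of genes that fell, 4.82% of genes that rose, 5.59% of all genes tested and 6.57% of all windows in the table. The ETS motif was in 6.51%, 4.92%, 5.68% and 3.42% in the same order, the CRE in 2.45%, 2.75%, 2.57% and 1.65%, and the CArG box in 1.48%, 1.11%, 1.23% and 1.16%. Of the 15 lowest genes 13 had a window, and BCL2A1 alone among them held a STAT match; of the 15 highest genes 12 had a window, and 3 of these, ID3, MECOM and DDB2, held one. A match is a description of these letters and shows no binding.

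Genes of MYC and ribosome production fell with MYC, which is itself a member of this list and of the ERK and JAK-STAT lists. Of 31 tested, from a list of 40, 24 fell (77.4%, against 14.3% of all genes) and none rose (against 19.1%). The median was -1.05, and 20 fell and none rose with the ACTB covariate. RRS1, a factor for assembly of the large ribosomal subunit, had signals of 370.1, 246 and 517 with A1 and 32.4, 13 and 20 with A2 (-3.55 ± 0.29, limma adjusted p = 7.70e-08). NOLC1, a nucleolar phosphoprotein, went from 1681, 1517 and 1784 to 336, 274 and 256 (-2.48 ± 0.16), and MRTO4, a nucleolar assembly factor, from 1205, 1220.5 and 1125 to 233, 209 and 181 (-2.46 ± 0.13). No array of these genes overlapped between the groups. NOP16 (-2.31), the helicase DDX21 (-2.04) and WDR3 (-1.86), also nucleolar, fell by less than RRS1, and so did TFRC (-1.05), the transferrin receptor. The polyamine enzymes SRM (-0.80) and ODC1 (-0.40), known MYC targets, fell by under 1 on the log2 scale. NCL (-0.35), FBL (0.12), CAD (-0.26) and CDK4 (0.08) were not called. The E-box CACGTG, the motif of MYC, was searched after these values had been seen. It was in 6 of the 31 windows of the list (19.4%), in 10.4% of windows of genes that fell, 8.92% of genes that rose and 8.16% of all genes tested. In the ERK list it was in 15.8% of windows, and in the list of mitotic genes in 9.76%. The ETS motif was in 16.1% of windows of the MYC list and 0% of the ERK list. The STAT motif was in 7.69% of windows of the JAK-STAT list, 10.5% of the ERK list, 12.2% of the mitotic list and 3.23% of the MYC list. These lists have few windows, and no share was tested.

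Cytokine and NF-kB target genes fell more often than they rose. Of 23 tested, 7 fell (30.4%, against 14.3% of all genes) and 2 rose (8.7%, against 19.1%), and the median was -0.28 (7 and 0 with the ACTB covariate, and 1 rose without A1 replicate 1 or without A2 replicate 1). Besides CCL20, IL10 and OSM, ICAM1, an adhesion molecule, went from 785, 592 and 634 with A1 to 218, 144 and 141 with A2 (-1.95 ± 0.17), without overlap. RELB (-1.25), IL26 (-1.24) and NFKBIA (-0.82), the inhibitor that NF-kB itself induces, fell. The subunits NFKB2 (0.47) and REL (0.64) rose. TNFAIP3 (-0.20), TRAF1 (-0.04) and TNFAIP2 (-0.04), further NF-kB targets, were not called.

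Among activation and cytotoxic markers of ALCL, 9 of 21 fell (42.9%, against 14.3% of all genes) and 5 rose (23.8%, against 19.1%). The median was -0.32, and 8 fell and 3 rose with the ACTB covariate. TNFRSF8, which encodes CD30, the surface marker by which ALCL is diagnosed, had signals of 1679.6, 2078 and 1587 with A1 and 194, 194 and 176 with A2 (-3.17 ± 0.12, limma adjusted p = 8.43e-12). PRF1, the pore-forming protein perforin, went from 4839.5, 4434 and 5332 to 587, 656 and 600.5 (-2.96 ± 0.12). Neither gene overlapped between the groups, and in bulk RNA fewer cells of a type and less RNA per cell cannot be told apart. The granzymes GZMA (-0.76) and GZMB (-0.74) fell by less, and GNLY, which encodes granulysin, was not called (0.62). S100A4 (1.81 ± 0.25), the RNA-binding protein TIA1 (1.16), LGALS1 (0.77), CLU (0.50) and ANXA1 (0.42) rose.

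The calls of the T-cell list were all falls. Of 14 tested, from a list of 25, 5 fell (35.7%, against 14.3% of all genes) and none rose (4 and 0 with the ACTB covariate). ICOS, a costimulatory receptor of activated T cells, had signals of 512, 423 and 488 with A1 and 64, 33.6 and 50.3 with A2 (-3.04 ± 0.20, limma adjusted p = 5.66e-09). CTLA4, an inhibitory receptor, went from 242, 300.1 and 311 to 67.6, 68.4 and 57.9 (-1.96 ± 0.16), and GATA3, a transcription factor of T-cell fate, from 303, 222 and 246 to 85.5, 88.7 and 112 (-1.33 ± 0.17). All 3 genes were lower on every A2 array than on any A1 array. LEF1, a factor of the Wnt pathway, fell 1.95-fold (-0.96 ± 0.16; another probe set -0.06, not called), and of the receptor complex CD3D fell (-0.32) whereas CD3E (-0.11), TRBC1 (-0.25) and CD5 (-0.30) were not called.

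Markers were also read as a check of the cells. Of the 5 ALCL markers ALK, TNFRSF8, IL2RA, PRF1 and GZMB, all 5 reached the 40th percentile of their array on at least 3 of the 6 arrays, and their summed signal was 12934.5 to 14311 with A1 and 4837.1 to 5402.8 with A2. Of 11 T-cell markers 4 did (CD3D, CD3E, CD5 and CD8A), with CD3G, CD247, CD2, CD4, CD7, LCK and ZAP70 below. Their sum was 1317.6 to 1613.1 with A1 and 1081 to 1208.8 with A2. Of 10 B-cell markers 4 did (BLK, CD22, MS4A1 and VPREB3), with BLNK, CD79A, CD79B, CR2, FCER2 and PAX5 below. Their sums were 231 to 311.6 with A1 and 225.6 to 300.3 with A2. Of 12 myeloid markers 4 did (CD163, CSF1R, CSF3R and ITGAM), with CD14, ELANE, FCGR1A, ITGAX, LYZ, MPO, MRC1 and SPI1 below. The sum of the 12 was 2355.3 to 2509.3 with A1 and 1476.7 to 1592.6 with A2, without overlap. CD163, a scavenger receptor of macrophages, carried most of that sum, with signals of 1980.2, 1922 and 2113 and 1116, 1196 and 1219.9 (-0.76 ± 0.11). CSF1R, the receptor of a macrophage growth factor, fell as well (-0.76), and CSF3R, the receptor of a granulocyte growth factor, rose (0.50). Neither call held with the ACTB covariate (limma adjusted p = 0.137 and 0.158). Of the B-cell markers VPREB3 rose (0.84). No B-cell marker was called higher with the ACTB covariate, with a common median or without any 1 of the 6 arrays. Of 17 epithelial and stromal markers 8 did (ACTA2, COL1A1, DCN, FN1, KRT18, KRT8, PECAM1 and VIM), with CDH1, CDH5, COL1A2, COL3A1, EPCAM, KRT19, KRT5, LUM and VWF below. Their sums of 6781.7 to 8309.9 with A1 and 7195.6 to 8850.1 with A2 overlapped. VIM carried most of that sum, with mean signals of 7001.7 with A1 and 7334.8 with A2. DCN, a matrix proteoglycan, fell (-0.47), and another probe set was not called (-0.31). The DCN call was lost with the ACTB covariate, without the filter, and without any 1 of the 6 arrays. The part of other cell types in the results was not tested.

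TXNIP, an inhibitor of thioredoxin and of glucose uptake, rose most. Its signals were 417, 459.8 and 511 with A1 and 4713, 5545 and 4680.5 with A2, a 10.5-fold rise (3.40 ± 0.13, limma adjusted p = 7.05e-12). CCR7, the chemokine receptor that guides naive T cells into lymph nodes, went from 100.1, 95.3 and 95.8 to 746, 799 and 753 (2.85 ± 0.12, limma adjusted p = 2.01e-11). The arrays of each group lay close together and far from the other group for both genes. BAMBI, a decoy receptor that dampens TGF-beta signals, went from 122, 123 and 116 to 696, 836 and 637 (2.47 ± 0.12). ID3, an inhibitor of E-protein transcription factors, went from 114, 72.3 and 75.4 to 466, 501 and 579 (2.44 ± 0.20), again without overlap.

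MXD3, CCNG2 and CDKN1B were among the other rises. MXD3, which competes with MYC for its partner MAX, had signals of 29.3, 17.2 and 15.1 with A1 and 155, 169.7 and 129 with A2 (2.38 ± 0.20, limma adjusted p = 8.81e-08). CCNG2, an unusual cyclin linked to cell cycle arrest, went from 106, 48.3 and 73.5 to 559, 431 and 335 (2.41 ± 0.23). CDKN1B, which encodes the CDK inhibitor p27, went from 174, 114 and 129.8 to 474, 509.9 and 533 (1.80 ± 0.15). All A2 arrays of these genes were above all A1 arrays. The coactivator PNRC1 (2.03), the histone gene H2AC6 (2.09), the RAB5 exchange factor RIN2 (2.20) and DDB2 (1.86), a sensor of DNA damage, rose too. MECOM (2.03), TBX3 (1.87), SLC46A3 (1.92), MEAK7 (1.90) and BORCS6 (1.89) complete the 15, with low signals on every A1 array. The call of TBX3 was lost with the ACTB covariate (1.03, limma adjusted p = 0.333), and without the filter another probe set stood for MECOM, at -0.13.

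The list of FOXO and PI3K-AKT genes that holds TXNIP, CCNG2 and CDKN1B did not move one way. Of 19 tested, 6 rose (31.6%, against 19.1% of all genes) and 5 fell (26.3%, against 14.3%). The median was 0.03, and 3 rose and 3 fell with the ACTB covariate. SESN1 (0.49), DEPP1 (0.89) and PIK3R1 (0.41) rose as well. S1PR1, the receptor for lymphocyte exit from lymph nodes, went from 81, 125 and 55.8 with A1 to 19, 18.3 and 19 with A2 (-1.66 ± 0.27). It is a FOXO1-KLF2 target in resting T cells, and it fell without overlap, as did the kinase gene SGK1 (-1.52). FOXO1 itself (-1.09) and IL7R (-0.75) fell too, and FOXO3 (0.03) and KLF2 (-0.15) were not called. The motif GTAAACA, which FOXO factors bind, was also searched after the values had been seen; it was in 1.48% of windows of genes that fell, 2.56% of genes that rose and 2.26% of all genes tested.

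**Figure D3:**
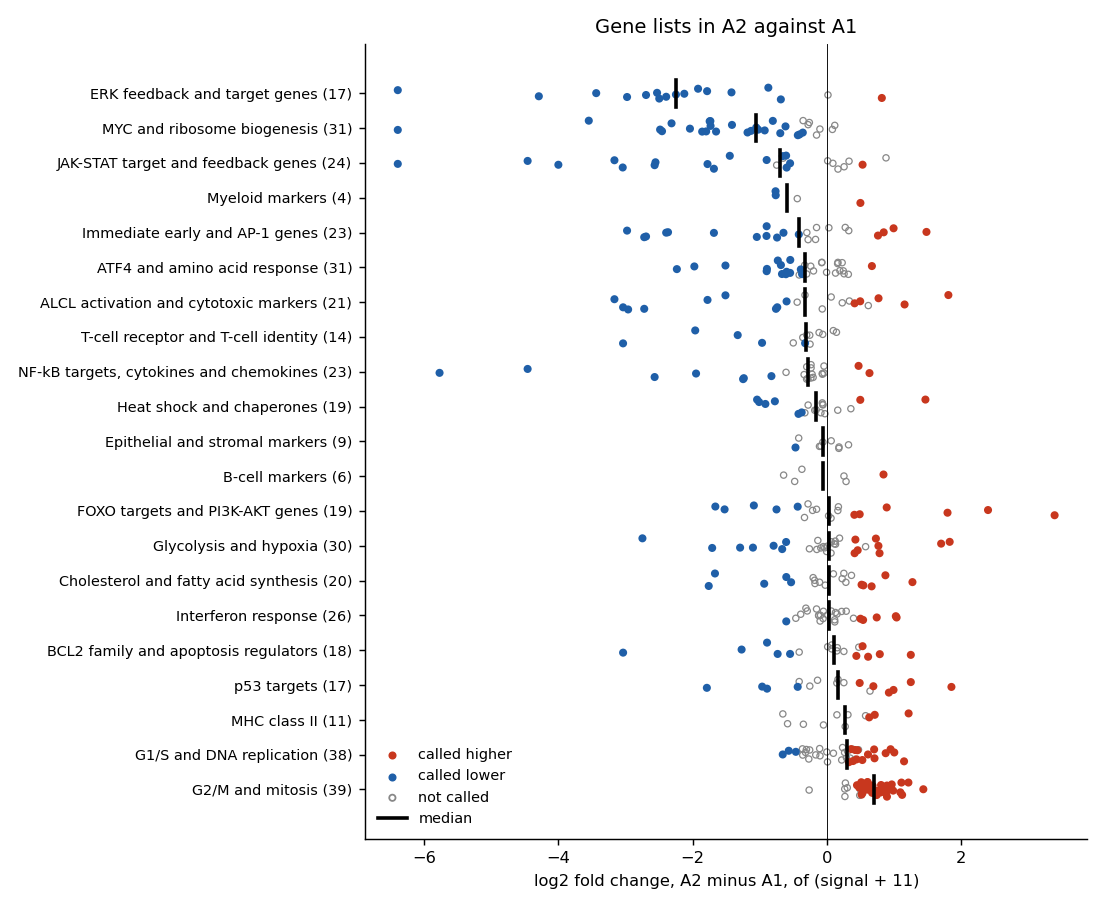
Each point is the log2 fold change of A2 against A1 of 1 tested gene of a list, filled when called (red higher, blue lower) and open when not, with the list's median as a black bar and the number tested in brackets. Medians run from -2.25 for ERK feedback and target genes to 0.71 for G2/M and mitosis.

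Genes of mitosis were higher after 6 h with A2. Of 39 tested, 32 rose and none fell, where 19.1% of all genes rose, with a median of 0.71 (25 rose and none fell with the ACTB covariate, median 0.67, and 1 fell without A1 replicate 2). CDC25C, the phosphatase that starts mitosis, had signals of 122, 156 and 124 with A1 and 437, 388 and 325 with A2 (1.44 ± 0.15, limma adjusted p = 1.21e-06). NUSAP1, a spindle protein, went from 1368, 1339 and 1411 to 3007, 3445 and 3186 (1.22 ± 0.11). Both genes were above A1 on every A2 array, as were NCAPG (1.12), a condensin subunit, and DLGAP5 (1.11), a spindle assembly factor. The kinetochore motor CENPE (1.10), KIF20A (0.99), FOXM1 (0.90) and AURKB (0.86) rose by nearly as much. CCNB1 (0.27), CDK1 (0.31), AURKA (0.28) and MAD2L1 (-0.26) were not called. The rises were mostly below 1 on the log2 scale, whereas the falls of ERK targets were mostly above 2.

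Replication genes moved less evenly. Of 38 tested, 14 rose (36.8%, against 19.1% of all genes) and 3 fell (7.89%, against 14.3%). The median was 0.30. With the ACTB covariate 7 rose and 2 fell, and 9 rose without A2 replicate 1. CDT1, which loads the replicative helicase, went from 207, 128 and 154 with A1 to 419, 358 and 333 with A2 (1.15 ± 0.16), and MCM5, a subunit of that helicase, from 736, 629 and 704 to 1419, 1344 and 1266 (0.95 ± 0.11). LIG1, the ligase of lagging-strand synthesis, went from 268, 241 and 290.0 to 556, 552 and 527 (1.01 ± 0.12). These genes did not overlap between the groups. CCNE1 (-0.57), E2F3 (-0.46) and UNG (-0.66) fell, while CCNE2 (0.71), E2F8 (0.71) and POLA1 (0.88) rose. PCNA (0.31), MCM2 (0.27), CDC25A (-0.27) and E2F1 (0.10) were not called.

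Glucose metabolism genes split by member. Of 30 tested, 8 rose (26.7%, against 19.1% of all genes) and 7 fell (23.3%, against 14.3%). The median was 0.04, and 4 rose with the ACTB covariate. SLC2A3, the high-affinity glucose transporter, went from 1531, 1364 and 1626 with A1 to 239, 229 and 180.2 with A2 (-2.75 ± 0.13, limma adjusted p = 8.33e-11), without overlap. PFKFB3, which raises the main activator of glycolysis, fell 3.27-fold (-1.71 ± 0.17), whereas its paralog PFKFB4 rose from 15.3, 16.4 and 9.1 to 71.7, 85.7 and 71 (1.83 ± 0.29). Both hexokinases HK2 (-1.29) and HK1 (-0.79) fell, and ENO2, the neuronal form of enolase, rose from 443, 486 and 405 to 1565, 1385 and 1470.4 (1.71 ± 0.14). LDHA (-0.09), PGK1 (-0.26), ENO1 (-0.15) and SLC2A1 (0.11) were not called. Among 20 genes of cholesterol and fatty acid synthesis 5 rose (25%, against 19.1% of all genes) and 5 fell (25%, against 14.3%). With the ACTB covariate 0 rose and 3 fell, and 3 rose without A1 replicate 3. ACACA, the first enzyme of fatty acid synthesis, fell 3.39-fold (-1.76 ± 0.27), and the sterol enzymes HSD17B7 (-1.67) and LSS (1.28) moved in opposite directions. The call of LSS was lost with the ACTB covariate (1.02, limma adjusted p = 0.0511).

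The direction of the amino acid response list depended on the control. Of 31 ATF4 and amino acid response genes, 14 fell (45.2%, against 14.3% of all genes) and 1 rose (3.23%, against 19.1%) against A1. The median was -0.33, and 7 fell and 1 rose with the ACTB covariate. Against U 11 rose and 4 fell, with a median of 0.13, where 19.8% of all genes rose and 15.4% fell. In A1 against U the median of the list was 0.45, and values ran from 0.01 for NUPR1 to 1.15 for SLC7A11, although only SLC7A11 and PSAT1 passed the test there. The amino acid transporters SLC1A5 and SLC7A5 fell against both controls. SLC1A5 had signals of 2271, 2354 and 2715 with A1, 1927, 1649.9 and 1762 in U and 506, 589 and 444 with A2 (-2.23 ± 0.13 against A1, -1.78 ± 0.13 against U). SLC7A5, the large neutral amino acid transporter, had 2153, 2309 and 3032 with A1, 2324, 2090.1 and 2042 in U and 691, 635 and 545 with A2 (-1.97 ± 0.13 against A1, -1.77 ± 0.13 against U). A2 lay below both controls without overlap in both genes. Asparagine synthetase, ASNS, fell against A1 (-0.73) and was not called against U (0.05), and ATF4 itself was not called against A1 (0.26) and rose against U (0.69). PSAT1, of serine synthesis, had signals of 303, 247 and 349 in U, 486, 561 and 524 with A1 and 592, 534 and 638 with A2, so that U stood below both compounds.

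Genes of cell death moved both ways. Of 18 tested members of the BCL2 family and other apoptosis regulators 5 fell (27.8%, against 14.3% of all genes) and 5 rose (27.8%, against 19.1%). With the ACTB covariate 2 rose. After BCL2A1 the largest fall was in CFLAR, which blocks death receptor signals, from 1541, 1354 and 1432 with A1 to 613, 579.7 and 581 with A2 (-1.27 ± 0.12), with 3 further probe sets not called (-0.28 to -0.37). PMAIP1, which encodes the killer protein NOXA, fell too, 1.85-fold (-0.89 ± 0.15). BAX, an effector of mitochondrial death, rose from 19.7, 21.1 and 17.7 to 68.2, 65.9 and 52 (1.25 ± 0.30), and BAD (0.79) and BCL2L2 (0.62) rose as well. BCL2 (0.07) and XIAP (0.48) were not called. Of 17 p53 targets 6 rose (35.3%, against 19.1% of all genes) and 4 fell (23.5%, against 14.3%). With the ACTB covariate 6 rose and 3 fell. DDB2 rose from 190.5, 212 and 193 to 857, 699.6 and 699.5 (1.86 ± 0.11), and TP53I3 rose 1.99-fold, while TIGAR, a fructose bisphosphatase that restrains glycolysis, fell from 322, 319.7 and 330.3 to 88.9, 91.1 and 78.5 (-1.79 ± 0.12). CDKN1A, the p53 target p21, was not called (0.17).

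Against 19.1% of all genes that rose and 14.3% that fell, the share of rises was 19.2% among interferon response genes and 27.3% among MHC class II genes, and the share of falls was 31.6% among heat shock and chaperone genes. Of 26 interferon response genes 5 rose and 1 fell (3 rose without A1 replicate 2, without A2 replicate 3 or with the ACTB covariate), led by IRF7 (1.04 ± 0.18) and OASL (1.03 ± 0.16), although another probe set of OASL was not called (0.06). Of 11 MHC class II genes 3 rose, HLA-DRA (1.22), CD74 (0.72) and HLA-DMA (0.63), and none of these calls held with the ACTB covariate. The A1 arrays of HLA-DRA, 56.5, 80.1 and 13.6, spread more widely than those of A2, 100.3, 120.0 and 120.5, and did not overlap with them. CD74 lost its call without any 1 of the 6 arrays (0.60 to 0.79). Of 19 heat shock and chaperone genes 6 fell and 2 rose (1 and 1 with the ACTB covariate, and 3 fell without A1 replicate 2). DNAJB4, a cochaperone, went from 24.5, 16.4 and 11.1 to 77.5, 64.8 and 57.4 (1.47 ± 0.25), and HSPA4 fell 1.89-fold (-0.91 ± 0.15).

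Against U, the cells with no compound, A2 gave 3018 called genes (35.1%), 1698 higher (19.8%) and 1320 lower (15.4%). This comparison shares the A2 arrays with the one against A1, so the values are given side by side only. MYC was -6.40 against A1 and -6.47 against U, CCL20 -5.77 and -5.75, IL10 -4.46 and -4.73, and HBEGF -4.62 and -4.23. Among rises TXNIP was 3.40 and 3.99, CCR7 2.85 and 2.31, and CCNG2 2.41 and 2.61. A1 differed from U in 3 genes (0.0349%), 2 higher (0.0233%) and 1 lower (0.0116%), while 765 had an unadjusted limma p below 0.05. SLC7A11, the cystine transporter, had signals of 36.6, 51.3 and 31.6 in U and 113, 91.4 and 97.9 with A1, and PSAT1 was higher with A1 as given above. LRRC61, a leucine-rich repeat protein, was lower with A1: its signals were 217, 219 and 228 in U, 117, 116 and 123 with A1 and 196, 231 and 179.9 with A2, so A1 stood apart from both. None of the 3 was called with the ACTB covariate, without the filter, or with only the arrays of A1 and U.

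A2 and A3 were given at the same dose for the same time. Of 3 pairs of compounds, A2 and A3 each against A1 and A3 against A2, the last gave 13 called genes (0.151%), 5 higher (0.0582%) and 8 lower (0.0932%) with A3, and 762 with an unadjusted limma p below 0.05; A3 against A1 gave 2805 (32.7%). The median half-width of the 95% interval of the difference between A3 and A2 was 0.35 on the log2 scale, and the interval lay within 1 either way for 8020 of the 8587 genes (93.4%). The difference in MYC was -0.57 (95% interval -1.06 to -0.08), in CCL20 -0.03 (-0.35 to 0.30), in TXNIP -0.03 (-0.30 to 0.24) and in CDKN1B 0.08 (-0.23 to 0.39). HSD17B3, a steroid dehydrogenase, had the largest called difference, with signals of 42.2, 47.8 and 59.8 with A1, 25.1, 10.4 and 9.3 with A2 and 57, 67.2 and 70.4 with A3. A2 was below A1 there, and A3 was at the level of A1 or above. CEP43, a protein of the centrosome, had signals of 141, 155 and 138 with A1, 314, 269 and 305 with A2 and 141, 172 and 149 with A3, so that A2 alone was high on this probe set; another probe set of CEP43 was not called in A2 against A1 (0.22). HPCAL1, a calcium sensor, fell with A2 from 1480.5, 1368 and 1426 to 389.6, 403 and 381 and was at 601, 576 and 612 with A3. The count fell to 1 with the replicate number as a block, to 7 with the ACTB covariate, to 3 without the filter and to 0 with only the 6 arrays of A2 and A3.

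The hairpin lowers ALK itself, so A2 was set against it, in a fit of all 33 arrays. The hairpin value is the average of 3 differences between induced and uninduced cells: TS cells at 84 h, TS cells at 72 h and Su-DHL1 cells at 72 h. It called 4622 of 9097 genes (50.8%), 2646 higher (29.1%) and 1976 lower (21.7%). No array is shared with the comparison of A2 and A1. The time (6 h against 72 or 84 h) and the agent (an inhibitor against a hairpin) cannot be told apart, while the 2 settings in TS cells hold the cell line fixed. Induced cells had also been kept with doxycycline, which A2 cells had not. The arrays of the mutated hairpin A5M do not enter the average, and the part of doxycycline was not tested. ALK was -0.32 after A2 and -2.54 after the hairpin. Of the 1626 genes that A2 raised among the 8481 tested in both, the hairpin raised 874 (53.8%) and lowered 277 (17%); of the 1223 that A2 lowered, the hairpin lowered 693 (56.7%) and raised 195 (15.9%). As a share of the hairpin's own calls, 874 were 34.5% of those it raised and 693 were 35.4% of those it lowered. Across genes the fold changes correlated at r = 0.31 (Spearman rho = 0.33), as a description, since genes are not independent replicates.

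The difference between A2 and the hairpin itself passed the test for 2711 of 9297 genes (29.2%), 1304 with the higher value after A2 (14%) and 1407 with the lower (15.1%). All 39 mitotic genes tested had the higher value after A2, 32 having risen with A2 and 38 fallen with the hairpin, with medians of 0.71 and -1.28. Of the replication genes 35 of 38 had the higher value after A2 and 1 the lower, with medians of 0.30 and -1.51. CDC25C was 1.44 after A2 and -1.50 after the hairpin (difference 2.94, limma adjusted p = 1.63e-15), and MCM5 0.95 and -2.13 (difference 3.08). HELLS (0.79 and -2.22) and RAD54L (0.84 and -2.49), of chromatin and DNA repair, differed in the same way. In TS cells, the line given A2, 38 of 39 mitotic genes fell with the hairpin at 84 h (median -2.14) and 37 at 72 h (-1.18). In Su-DHL1 cells 32 did (-0.58). Of all genes tested 18.8%, 15.2% and 10.7% fell in these settings, in the same order. The medians of both lists thus had opposite signs at 6 h with A2 and at 72 to 84 h with the hairpin.

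ERK targets differed the other way. Of 17 tested, 14 had the lower value after A2, and the median was -2.25 after A2 and 0.24 after the hairpin, where 8 rose and 2 fell. Within the hairpin settings the ERK list had medians of 0.18 (TS, 84 h), 0.46 (TS, 72 h) and 0.16 (Su-DHL1). PHLDA1 was -2.50 after A2 and 2.83 after the hairpin (difference -5.33, limma adjusted p = 1.09e-18), and DUSP6 -4.29 and 0.66 (difference -4.95). CCR1, a receptor for inflammatory chemokines, fell with A2 from 379.7, 464 and 472 to 52.6, 58.3 and 68 (-2.67 ± 0.15) and rose with the hairpin (2.22). CCR7 did the reverse, at 2.85 after A2 and -0.68 after the hairpin, as did MXD3 (2.38 and -1.57). HBEGF was -4.62 and 0.03, and PRF1 -2.96 and 0.63. The 3 settings of the hairpin gave DUSP6 values of 1.14, 1.19 and -0.35, and CCR7 values of -1.91, -1.08 and 0.95, in TS cells at 84 h, TS cells at 72 h and Su-DHL1 cells.

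Most genes of the MYC and ribosome biogenesis list fell in both. After A2 24 of 31 tested genes fell, with a median of -1.05, and after the hairpin 29 of 31, with a median of -0.62; for 18 the value was lower after A2 and for 4 it was higher. MYC fell in both, with -6.40 after A2 and -1.53 after the hairpin (difference -4.86, limma adjusted p = 7.39e-19). TXNIP rose in both (3.40 and 2.22), and ICOS (-3.04 and -2.42), BCL2A1 (-3.04 and -1.44) and TNFRSF8 (-3.17 and -1.61) fell in both. For S1PR1 (-1.66 and -1.53), HSD17B7 (-1.67 and -1.73) and ATF3 (-0.90 and -0.89) the difference was not called. MHC class II genes rose further with the hairpin, 9 of 10 with a median of 1.53, and for 8 of 11 the value was lower after A2; HLA-DRA was 1.22 after A2 and 3.11 after the hairpin.

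**Figure D4:**
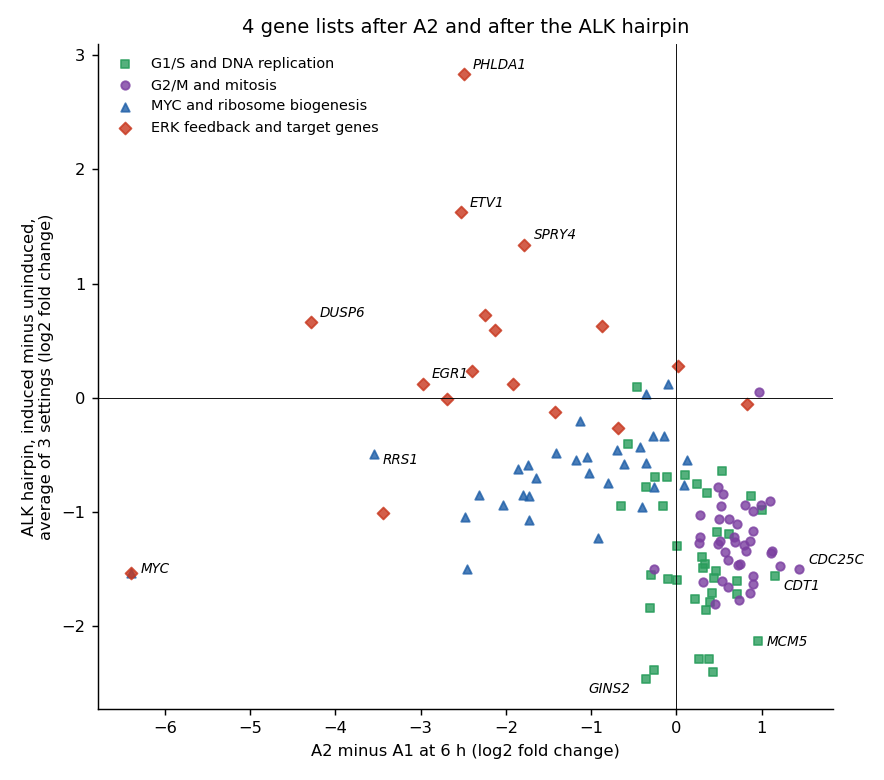
Each point is 1 tested gene of 4 lists, with its log2 fold change in A2 against A1 at 6 h on the x axis and the average log2 fold change of the ALK hairpin over 3 settings on the y axis. Mitotic genes (median 0.71 and -1.28) lie mostly in the lower right, ribosome genes (median -1.05 and -0.62) in the lower left, and ERK targets (median -2.25 and 0.24) mostly left of 0 on both sides of the horizontal line.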

How the data were processed

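Each of the 33 RNA samples was read on 1 HG-U133A array. The authors deposited 1 intensity per probe set, the signal of MAS5 according to the submitters' processing notes. The MAS5 version and options, not given in the sources used here, could not be checked. The values show that each array was scaled to a common mean after trimming 2% at each end (200.1), so no further normalization was done.

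Of 22283 probe sets 68 controls were left out. The platform annotation gave 19065 probe sets 1 gene symbol, 1043 several and 2107 none, and 19053 matched the gene table of assembly GRCh38.p14, with 0 symbols updated. The constant added before log2 was 11, which rounds the 20th percentile of the whole table (10.8). Probe sets at or above the 40th percentile of their array on 3 or more of the 12 arrays of U, A1, A2 and A3 were kept (14565), and that with the highest mean over the 33 arrays stood for its gene, which left 8587 genes. limma 3.58.1 in R 4.3.3 (lmFit, eBayes with a mean-variance trend, 8 residual and 8.80 prior degrees of freedom) fitted these 12 arrays. The hairpin arrays had a fit of their own (9097 genes), and the difference a fit of all 33 (9297 genes). All p-values are two-sided, with Benjamini-Hochberg adjustment over the genes of the fit. A gene low in some groups can pass the filter through the arrays of another group alone. On simulated data with A2 and A1 as model (8565 genes), the fit recovered 87% of 2-fold and 46% of 1.5-fold changes, with 9 false calls. There 100 genes were changed 2-fold and 100 were changed 1.5-fold, far fewer than were called in the data. Genes with the lowest signals were left unchanged, and normal noise was drawn independently for each array. These rates therefore need not hold for the data, least of all for genes with low signals.

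Genes were named by rule: ALK, NPM1, CEBPB and BCL2A1, the 15 highest and 15 lowest called genes without overlap, up to 4 called genes per list with the largest change (2 if none was called), and up to 5 per direction in each other comparison; other list members are named to show how a list divides and were chosen after their values were seen. The members and the 21 lists, some of which share genes, were chosen with earlier results of these data known. Motif windows came from RefSeq. Alternatives were other pseudocounts (1 and 32), filters, normalizations, array sets and variance models, a replicate block, the ACTB ratio as a covariate, every probe set, and leaving out each array of A1 or A2. Figures were drawn with matplotlib.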

Additional observations from a re-analysis of the deposited data

Results flagged for a closer look

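The inhibitors A2 and A3 differed from each other in 13 genes by limma's test of that difference, which is the difference of their 2 contrasts against A1. With A3 the value was lower for CEP43 (-0.90 on the log2 scale), PPM1B (-0.85), SPC25 (-0.80), RBM12 (-0.77), GSPT1 (-0.69), SRSF7 (-0.65), BCLAF1 (-0.62) and U2SURP (-0.61). It was higher for HSD17B3 (1.60), CCDC92 (0.79), KLF2 (0.73), OXLD1 (0.65) and HPCAL1 (0.59). SRSF7, a splicing factor, had signals of 2725, 2835 and 3052 with A1, 1332, 1416 and 1371 with A2, and 896, 822 and 899.7 with A3, so that both compounds were below A1 and A3 was below A2. For KLF2, a zinc finger factor of quiescent T cells, signals were 146, 123 and 161 with A1, 136, 130.3 and 116 with A2, and 217, 229 and 206.5 with A3, so that A3 alone was high. Which of the 13 a further set of arrays would call was not tested.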

How the results depend on the processing

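In A2 against A1 the count of 2871 called genes (1642 higher, 1229 lower) was 1354 (668 and 686) when the ACTB ratio was a covariate, which kept 45.6% of the calls; that ratio does not overlap between A1 and A2, so the covariate and the group are partly confounded. With every probe set tested it was 4609 (2670 and 1939), over 14565 tests. Leaving out 1 array of A1 or A2 gave 2386 to 2626 called (1338 to 1494 higher, 1048 to 1132 lower), by construction with fewer arrays. The other alternatives gave 2681 to 2892, and with arrays shifted to a common median 1393 were higher and 1397 lower. A2 against U gave 4935 (2879 and 2056) with every probe set. A3 against A1 gave 1452 (718 and 734) with the ACTB covariate and 4555 (2598 and 1957) with every probe set.

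The small counts moved most. A1 against U, 3 in the report (765 at an unadjusted limma p below 0.05), was 0 without the filter, with the ACTB covariate and with only the 2 groups compared, and 6 (4 and 2) with every probe set. A3 against A2, 13 in the report, was 7 (3 and 4) with the ACTB covariate, 6 (3 and 3) with every probe set, 3 (1 and 2) without the filter and 0 with only the 2 groups compared (762 at an unadjusted limma p below 0.05 among the 12 arrays). The cause was not tested.

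Replicate numbers did not pair the samples: deviations of same-numbered A1 and A2 arrays correlated at -0.01, -0.05 and -0.09. With the replicate number as a block 2873 genes were called in A2 against A1 and 97.4% of the calls were kept, but A3 against A2 fell to 1 gene (0 higher, 1 lower).

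Of 1798 values of the 107 named genes over 17 alternatives, 1745 kept direction and call, 48 lost the call (16 genes), 3 gained it (ALK) and 2 turned: NPM1, not called in either fit, was 0.14 with the ACTB covariate, and MECOM -0.13 without the filter. Of 63 further probe sets of called named genes 62 had the same sign, 49 were called in the same direction and 0 in the opposite one; those not called belong to BAX, CEP43, CFLAR (3), DCN, GATA3, HSPA4, LEF1, LSS, OASL, SLC7A11 (2) and SOCS1, whose value had the other sign. The size of a fall also differed between called probe sets of a gene, as for HBEGF, SOCS3, EGR1 and NOLC1 (-2.48, -1.52 and -1.31). With no detection calls, low signals limit the folds of genes near the constant of 11.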

Other observations

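Gene families outside the lists above were read after their values had been seen, so their counts are descriptions with no test of the family. Of all genes tested 19.1% rose and 14.3% fell. Of 43 interleukins and interleukin receptors tested, 17 fell and 3 rose after A2, with a median of -0.51 on the log2 scale (13 and 0 with the ACTB covariate). Receptor chains stood beside IL10: IL18RAP (-2.66), IL4R (-2.53), IL6R (-2.33), IL1RAP (-1.61), the decoy receptor IL1R2 (-1.60) and IL17RA (-1.41) fell, while IL10RA (0.74) and IL10RB (0.46), the chains of the receptor for IL10, rose. Of 13 subunits of RNA polymerases I and III, which make ribosomal and transfer RNA, 10 fell and none rose, with a median of -0.84 (7 fell with the ACTB covariate), led by POLR1G (-2.02) and POLR3G (-1.80). Of 56 cytosolic ribosomal protein genes 2 fell and 1 rose, with a median of -0.09 that turned to 0.11 with the ACTB covariate, where none was called. Of 16 proteins of mitochondrial import 7 fell and none rose (4 with the ACTB covariate), and of 41 translation initiation factor genes 15 fell and 2 rose (8 and 0 with the ACTB covariate), with EIF5B (-1.29) and EIF3J (-1.17) lowest.

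Of 14 lysine demethylases 9 rose and none fell (median 0.61; 5 rose with the ACTB covariate), with KDM7A (1.26) and KDM5B (1.03) highest. Of 20 histone genes 9 rose and none fell (4 with the ACTB covariate), led by H2AC6 (2.09), although near-identical histone genes may share probes. Of 6 metallothioneins, metal-binding proteins whose genes are also near-identical, 5 rose, with MT1X at 1.21 and MT2A at 0.98, and none was called with the ACTB covariate. Of 25 kinesins 11 rose and 1 fell (8 and 1 with the ACTB covariate): the rises were led by KIFC1 (1.03), and the fall was in KIF21B (-2.96). Of 11 killer cell immunoglobulin-like receptor genes, which share sequence so closely that probe sets can read several of them, 7 fell and none rose (median -0.73), and 1 fell with the ACTB covariate.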
